A study of Mus musculus with 4 samples.

Results

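Collagen chain genes encode the subunits of the collagens, and 44 genes of the 53715 listed in the files carry a symbol made of Col, a type number, the letter a and a chain number. All 44 were followed through inguinal white adipose tissue, a subcutaneous fat depot, by RNA sequencing of single nuclei. The mice were C57BL/6N and 6 months old, with 2 libraries labelled WT and 2 labelled PTRF KO, each titled as a separate mouse and with no treatment named. PTRF is the older name of Cavin1, which encodes the coat protein of caveolae. The labels do not say how the knockout was made or in which cells it acts. Tests compare 2 libraries with 2, so their p-values measure the spread between these libraries.

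Each collagen molecule is a triple helix of 3 alpha chains, and many collagens need chains from several genes. Fibrillar collagens (types I, III and V among them) form the tension-bearing fibres of connective tissue, type IV forms the mesh of basement membranes, and type VI forms beaded filaments around cells such as adipocytes. FACIT collagens attach to the surface of fibrils, multiplexins (types XV and XVIII) sit in or beside basement membranes, and transmembrane collagens stay anchored in the cell membrane. In adipose tissue, fibroblasts and adipocyte progenitors are known as the main makers of fibrillar collagen, while adipocytes are each wrapped in a basement membrane.

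The label check came first, because it bears on every direction given here. In the sum of all nuclei, Cavin1 stood at 2.02 and 0.937 normalised CPM (UMIs as a share of the library total, after scaling between libraries) in the libraries labelled WT 1 and 2, and at 47.9 and 57.3 in those labelled PTRF KO 1 and 2. It was higher in the libraries labelled PTRF KO by 5.08 ± 0.54 (log2 difference ± SE, edgeR quasi-likelihood test), against what the label says. In adipocytes the values were 3.50 and 1.13 against 95.4 and 95.8, and in progenitors 1.24 and 2.55 against 76.2 and 82.4. File names also carry the opposite genotype to the labels. Groups are therefore called by their labels throughout, and a direction says only which labelled libraries were higher.

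After filtering, 6664 to 15528 nuclei per library labelled WT and 11988 to 15887 per library labelled PTRF KO were kept, with library medians of 844.5 to 1401 UMIs. Library pairs shared 47 to 143 barcodes. The PTRF KO 2 library had the most UMIs, 34819482, and WT 2 the fewest, 8623219. Nuclei were clustered without the collagen chain genes, and a cluster took a name when at least 3 markers of a cell type were among its 100 leading genes. This gave 10 classes with at least 50 nuclei in every library. They were progenitors (fibroblast/progenitor-like, 4141 nuclei), adipocytes (9603), endothelial nuclei (619), macrophages (1719), dendritic nuclei (766), T and NK nuclei (6240), B nuclei (5205), hormone-sensing luminal (1199) and secretory-type luminal epithelium (5490), and a contractile class (2490). The contractile class carried as many smooth muscle as myoepithelial markers, and the endothelial class carried 9 vascular and 5 lymphatic markers. Epithelial classes belong to mammary tissue, which lies in this fat depot. Clusters 1, 2, 7, 10, 13, 15 and 22 took no name and held 1666, 1038, 4095, 1723, 1149, 2533 and 335 nuclei. Their nuclei count in the sum of all nuclei and in library totals, but in no class. Their shares were uneven: cluster 7 held 482 and 902 nuclei in WT 1 and 2 and 1613 and 1098 in PTRF KO 1 and 2. A skeletal muscle cluster of 56 nuclei was too small. All class names below are rebuilt from markers and stand for nuclei that resemble the type.

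Levels by class are given as CPM, a gene's share of the summed UMIs of a class, over 4 libraries in the order WT 1, WT 2, PTRF KO 1 and PTRF KO 2. Because classes were built from the same nuclei, the order of classes is a description and was not tested. Fibrillar chains as a family summed to 3506 ± 1473 CPM in progenitors (SD, n = 4), against 277 ± 85.1 in adipocytes, 341 ± 108 in the contractile class and 211 ± 59.4 in T and NK nuclei. Type IV chains summed highest in the contractile class, at 2005 ± 223 CPM, and in secretory luminal nuclei, at 1818 ± 309. Type VI chains summed to 879.5 ± 361 CPM in progenitors and 91.4 ± 56.8 in adipocytes. All 44 members together made up 6590 ± 2151 CPM of progenitor UMIs and 1455 ± 330 CPM of adipocyte UMIs. The per-library sums in progenitors were 3907, 5924, 7700 and 8828 for all members.

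**Figure D1:**
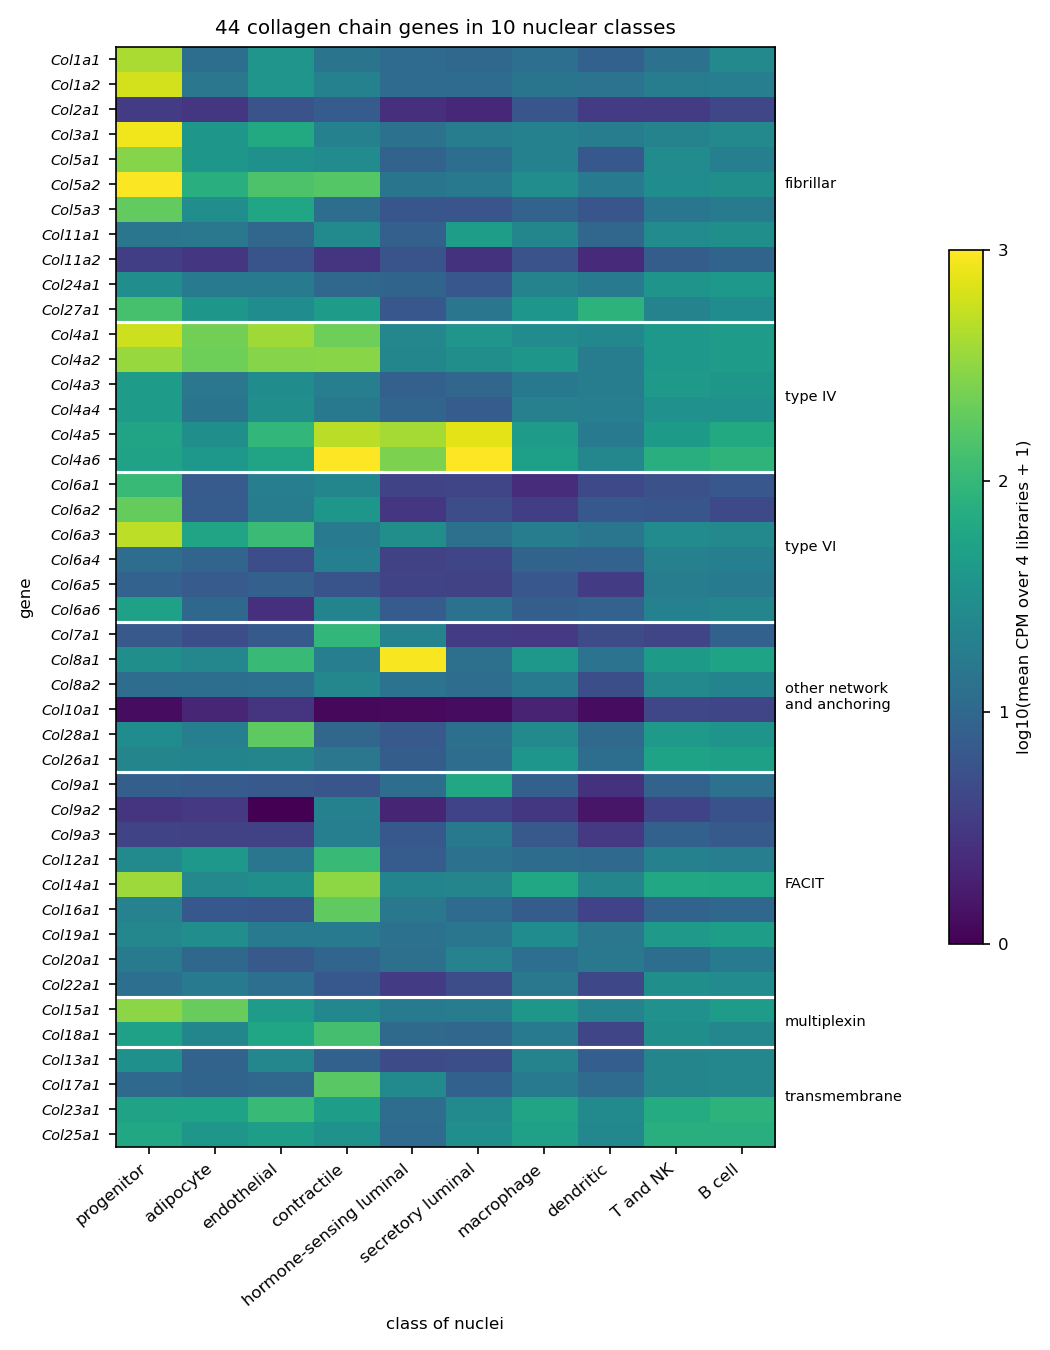
Mean level of each of the 44 collagen chain genes (rows, ordered by family) in 10 classes of nuclei (columns), as log10 of CPM plus 1 over 4 libraries. Most fibrillar and type VI rows are brightest in progenitors, and the Col4a5 and Col4a6 rows in the luminal and contractile classes.

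T, NK and B nuclei served as the reference for background, since lymphocytes are not known as a source of these matrix proteins. Unnamed clusters were left out of this comparison. In 28 members the highest of the 10 classes stood at least 2-fold above the mean of the lymphocyte classes, with folds from 2.25 to 44. In the other 16 it did not, and their highest class mean lay between 3.35 and 103 CPM. These 16 were Col11a1, Col11a2, Col24a1, Col4a3, Col4a4, Col6a4, Col6a5, Col8a2, Col10a1, Col26a1, Col19a1, Col20a1, Col22a1, Col13a1, Col23a1 and Col25a1. Just outside the limit stood Col11a1 at 1.63-fold, and just inside it Col2a1, the cartilage collagen, at 2.25-fold with a highest mean of 6.37 CPM. Lymphocyte levels followed gene span: Pearson's r between log span and log CPM was 0.85 and Spearman's rho 0.84 across the 44 genes, and 0.33 and 0.19 for exon length. These are descriptions across genes of the same libraries. Spans ran from 7.105 to 468.377 kb, and the plot of lymphocyte level against span shows the relation.

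**Figure D2:**
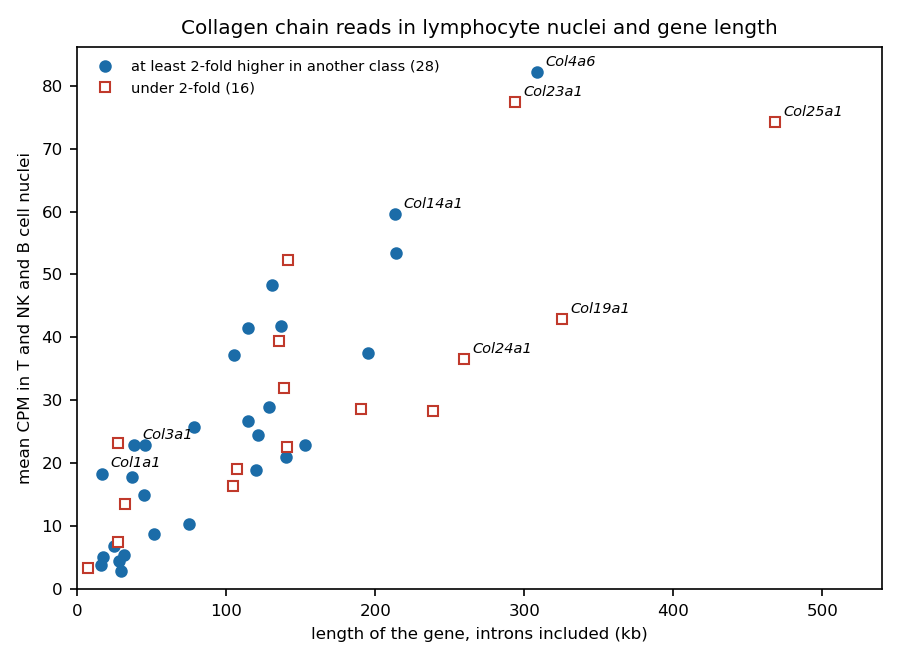
Mean CPM in T, NK and B nuclei (vertical) against the length of the gene with its introns in kb (horizontal), with 1 point per collagen chain gene. Filled points are the 28 genes at least 2-fold higher in another class and open points the other 16, and genes with longer spans sit higher in both.

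Among the 28 members above the lymphocyte reference, 15 were highest in progenitors, 8 in the contractile class, 3 in secretory luminal nuclei, and 1 each in hormone-sensing luminal and endothelial nuclei. By family, 7 of 8 fibrillar and 4 of 4 type VI members were highest in progenitors, while 4 of 6 FACIT members were highest in the contractile class. In 13 members the range over 4 libraries did not overlap with that of the next class. These were Col1a1, Col1a2, Col3a1, Col5a1, Col5a2, Col4a5, Col6a1, Col6a2, Col6a3, Col9a1, Col9a2, Col16a1 and Col17a1.

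Among fibrillar chains in progenitors, Col5a2, a chain of type V collagen that is built into type I fibrils, had the highest mean CPM, which is not scaled for length. Its level was 565, 1098, 970.1 and 1155 CPM, with a mean of 947 ± 266, and in PTRF KO 2 it stood below Col3a1. Col3a1, the single chain of type III collagen, stood at 349, 797, 744 and 1569 CPM. Col1a2, at 362, 422, 554 and 1172 CPM, and Col1a1, at 182, 269, 451 and 741, encode the chains of type I collagen. For these last 3 genes the library labelled PTRF KO 2 was the highest and WT 1 the lowest, while for Col5a2 the other 3 libraries lay close together above WT 1. Among the 10 classes, the second class of Col1a1, Col1a2 and Col3a1 was the endothelium, at 36.0, 36.0 and 66.3 CPM. The step between neighbours in this order of classes was therefore large for these chains. Unnamed cluster 22 (335 nuclei), which is outside the 10 classes, stood between them, with means of 71.6, 184 and 95.5 CPM. From the endothelium downwards the ranges of Col1a1 in neighbouring classes overlapped. Progenitors held 8.48% of the libraries' UMIs on average but 72.0% of those of Col3a1, with a range of 61.5 to 78.3% over libraries.

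A UMI of Col3a1 was found in 43.4% ± 17.4 of progenitor nuclei and, with every nucleus thinned to 500 UMIs, in 23.6% ± 9.40. In T and NK nuclei the shares were 2.31% ± 3.05 and 1.18% ± 1.23, at median depths of 924.5 UMIs against 1297 in progenitors. Col5a3 (a type V chain found in few tissues) and Col5a1 (the chain common to most type V molecules) were lower than Col5a2 in progenitors, at 189 ± 155 and 285 ± 86.4 CPM. The order of genes in progenitors depended on the length used. Per kb of exon, the level was 98.8 CPM for Col5a2, 88.1 for Col3a1, 79.1 for Col4a1 and 62.6 for Col1a1. Per kb of gene span, introns included, it was 24.4 CPM for Col1a1, 22.7 for Col3a1, 7.34 for Col5a2 and 5.16 for Col4a1, so that Col5a2 fell from the first to the fourth place among the members. In lymphocytes the level followed span rather than exon length, as given above. Col27a1, a fibrillar chain of cartilage, was the leading member in dendritic nuclei, at 82.4, 88.4, 42.4 and 129 CPM from 80, 29, 6 and 45 UMIs. Its level was higher in progenitors in all 4 libraries, at 134.5 ± 26.8 CPM. Macrophages held 36.2 ± 11.6 CPM of it and the lymphocyte classes 24.5.

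Members of type IV showed 2 expression patterns, each shared by a pair of neighbouring genes. Col4a1 and Col4a2 encode the chains of the common basement membrane network. Col4a1 lies on the minus strand of chromosome 8 (11198423 to 11312826) and Col4a2 on the plus strand (11312805 to 11449287), so that they start head to head and overlap by 22 bases. Col4a6 (chromosome X, 141165403 to 141474076, minus strand) and Col4a5 (141475385 to 141689234, plus strand) encode chains of epithelial and smooth muscle basement membranes, and their starts are 1308 bases apart. Positions are those of GENCODE M21 on GRCm38. No source used here states whether the counting used strand, so reads where Col4a1 and Col4a2 overlap cannot be assigned, and 18 members overlap some gene of the opposite strand. The promoter windows of both pairs are shown because each pair had nearly the same order of classes. They are RefSeq windows on GRCm38.p6, 250 bases before to 50 after the annotated start, written 5′ to 3′ on the gene's strand. Capitals mark matches on either strand to the TATA box letters TATAAA, the CCAAT box or the GC box letters GGGCGG. They lie at chr8:11312777-11313076 (minus), chr8:11312555-11312854 (plus), chrX:141475169-141475468 (plus) and chrX:141474027-141474326 (minus), in the order printed.
Col4a1: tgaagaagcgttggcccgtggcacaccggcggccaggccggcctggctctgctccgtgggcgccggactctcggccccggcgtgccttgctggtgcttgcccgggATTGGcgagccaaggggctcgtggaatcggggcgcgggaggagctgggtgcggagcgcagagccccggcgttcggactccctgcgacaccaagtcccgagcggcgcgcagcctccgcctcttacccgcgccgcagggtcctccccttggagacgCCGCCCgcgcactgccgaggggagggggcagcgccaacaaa
Col4a2: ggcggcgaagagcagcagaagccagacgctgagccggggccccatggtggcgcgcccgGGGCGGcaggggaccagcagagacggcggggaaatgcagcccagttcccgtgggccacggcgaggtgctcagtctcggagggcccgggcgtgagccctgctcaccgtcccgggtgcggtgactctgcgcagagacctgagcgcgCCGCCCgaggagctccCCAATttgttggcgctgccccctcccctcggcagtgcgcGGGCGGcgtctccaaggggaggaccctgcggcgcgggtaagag
Col4a5: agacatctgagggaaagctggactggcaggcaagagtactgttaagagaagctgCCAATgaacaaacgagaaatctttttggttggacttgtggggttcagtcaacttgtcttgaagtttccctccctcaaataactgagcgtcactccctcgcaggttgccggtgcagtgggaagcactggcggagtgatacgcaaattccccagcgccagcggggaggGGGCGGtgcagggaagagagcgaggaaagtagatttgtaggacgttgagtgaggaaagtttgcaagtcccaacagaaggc
Col4a6: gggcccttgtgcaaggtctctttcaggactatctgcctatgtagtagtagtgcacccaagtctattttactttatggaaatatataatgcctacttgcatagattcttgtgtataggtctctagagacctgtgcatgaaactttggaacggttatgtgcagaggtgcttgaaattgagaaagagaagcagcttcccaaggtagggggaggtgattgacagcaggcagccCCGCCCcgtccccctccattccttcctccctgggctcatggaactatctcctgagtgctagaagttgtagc

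The windows of Col4a1 and Col4a2 share 78 bases, read on opposite strands. Both hold 1 CCAAT match, and GGGCGG matches number 1 in Col4a1 and 3 in Col4a2. Col4a5 holds 1 CCAAT and 1 GGGCGG match, and Col4a6 holds 1 GGGCGG match. No TATAAA match falls in any of these windows, as in most promoters: 13.6% of all 32851 RefSeq promoter windows hold TATAAA, 37.4% CCAAT and 35.7% GGGCGG. Of the members, 35 had a RefSeq window (38 windows in all), of which 5 held TATAAA, 13 CCAAT and 23 GGGCGG. These matches are descriptions of letters and not binding sites.

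Col4a1 stood at 414, 435, 1011 and 504 CPM in progenitors, at 267, 372, 440.0 and 406 in endothelial nuclei, and at 196, 269, 257 and 199.9 in adipocytes. Its order of progenitors over endothelium held in all 4 libraries, although the ranges overlapped. Col4a2 stood at 235, 235, 499 and 414 CPM in progenitors and 135, 199, 267 and 258 in adipocytes, with overlapping ranges there as well. Adipocytes held 25.4% of the UMIs of a library on average and 38.4% of those of Col4a1. The ratio of Col4a1 to Col4a2 was 1.71 ± 0.35 in progenitors, 1.14 ± 0.32 in adipocytes and 0.76 ± 0.25 in the contractile class, so that the range in progenitors (1.22 to 2.03) lay above that in the contractile class (0.45 to 1.07).

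Col4a6 reached 796, 1036, 1173 and 885 CPM in the contractile class and 871, 1178, 1164 and 688 in secretory luminal nuclei, with no order between them. The secretory luminal class joins 2 clusters in different shares by library, and Col4a6 averaged 805 ± 260 CPM in cluster 0 and 1017 ± 223 in cluster 4. Col4a5 was highest in secretory luminal nuclei, at 786, 892, 743 and 626 CPM, above the contractile class (mean 493 ± 50.1) in every library. Hormone-sensing luminal nuclei held less, with means of 389 ± 73.1 CPM for Col4a5 and 256 ± 68.9 for Col4a6. The ratio of Col4a5 to Col4a6 was 1.58 in hormone-sensing luminal nuclei, with a range of 1.13 to 2.02, and 0.80 (0.64 to 0.91) in secretory luminal nuclei. Those ranges do not overlap, and the plot of type IV chains by class shows the pair side by side. Secretory luminal nuclei held 55.0% of all UMIs of Col4a5.

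**Figure D3:**
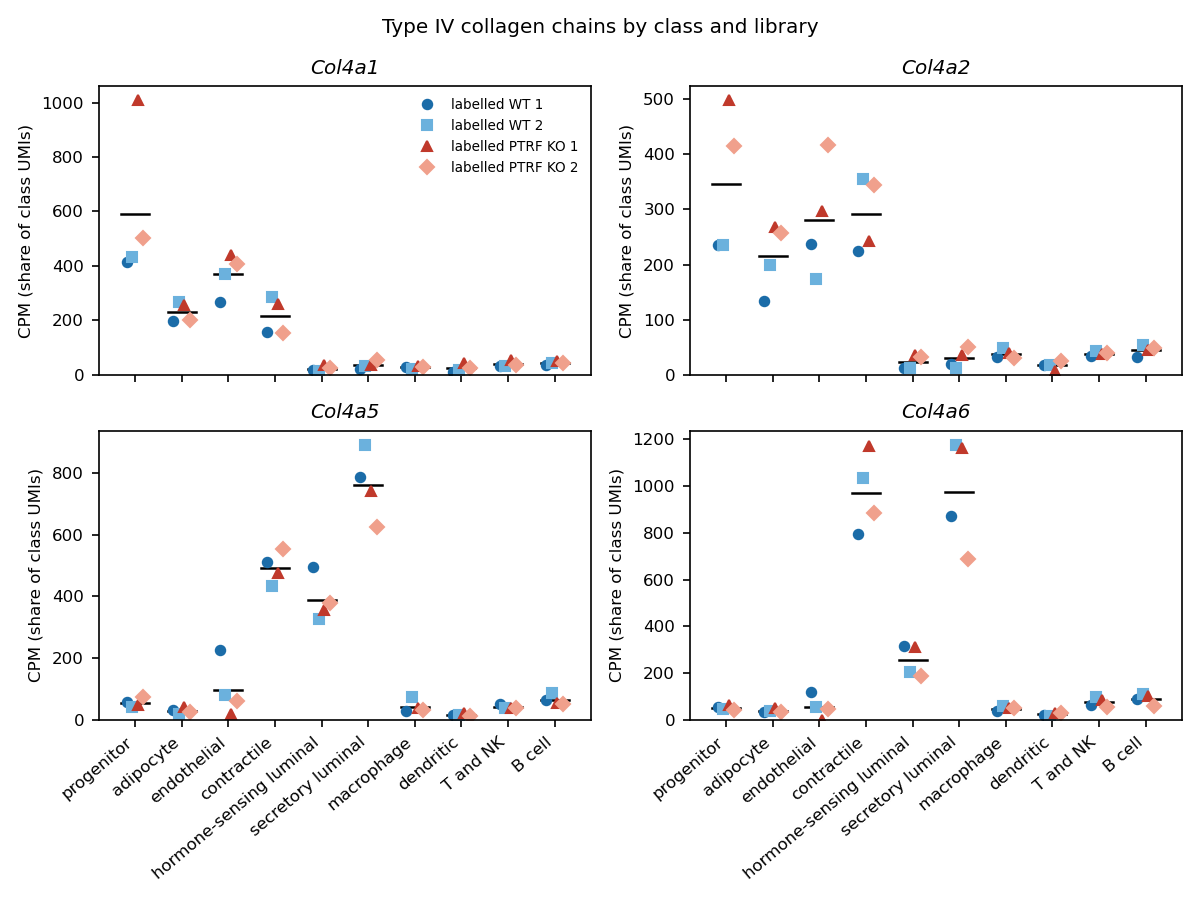
CPM of Col4a1, Col4a2, Col4a5 and Col4a6 by class of nuclei, with 1 point per library and a bar at the mean over 4 libraries. Col4a5 and Col4a6 are highest in secretory luminal and contractile nuclei, and Col4a1 and Col4a2 in progenitors, endothelium, contractile nuclei and adipocytes.

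The third pair, Col4a4 and Col4a3, starts 71 bases apart on chromosome 1 and encodes chains known from kidney, and neither exceeded the lymphocyte reference 2-fold in any class. Across the 10 classes the correlation of log10 (CPM + 1) was 0.98 for Col4a1 with Col4a2, 0.95 for Col4a5 with Col4a6, and 0.96 for Col4a3 with Col4a4. It was 0.98 for Col1a1 with Col1a2 and 0.97 for Col6a1 with Col6a2, against a median of 0.26 over all 946 pairs of members. Col1a1 with Col1a2 had the highest correlation of all pairs. The classes share libraries, depth and background, so these values carry no test.

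Of the 6 type VI chains, 4 were highest in progenitors, and the other 2, Col6a4 and Col6a5, stayed at 1.02 and 1.04 times the lymphocyte level in their highest class. That holds for the 10 classes only. In unnamed cluster 22, Col6a4 was at 116, 95.7, 29.3 and 81.5 CPM, from 29, 12, 2 and 23 UMIs, against 19.0 in lymphocytes. Col6a3, the large chain whose end is released as endotrophin, stood at 223, 469, 680.1 and 653 CPM in progenitors. Col6a1 stood at 65.1, 56.7, 139 and 171 CPM, and Col6a2 at 69.2, 190.1, 248 and 277. In adipocytes Col6a3 was at 29.9, 129, 32.0 and 28.3 CPM, with WT 2 apart from the other libraries. Within a library, the adipocyte level was 4.33 to 27.6% of the progenitor level. Col6a1 and Col6a2 lie in tandem on chromosome 10, and Col6a6, at 50.4 ± 16.8 CPM, was the remaining type VI member over the lymphocyte reference.

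Adipocytes were led by the basement membrane set. After Col4a1 and Col4a2 came Col15a1, a multiplexin that links basement membranes to the fibrils beneath, at 114, 148, 308 and 233 CPM. Col5a2 followed at 74.5 ± 25.7 CPM. Per kb of exon, Col4a2 (32.4 CPM), Col15a1 (31.6) and Col4a1 (30.9) differed by less than their spread over libraries. Adipocytes held 51.1% of the UMIs of Col15a1, with a range of 40.3 to 60.5%. Type I collagen was at or near the lymphocyte level in adipocytes, with means of 11.2 CPM for Col1a1 and 14.5 for Col1a2 against 18.4 and 17.8 in lymphocytes.

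Progenitors themselves fell into a cluster led by Pi16, a marker of interstitial progenitors, and a second cluster. Col14a1, a FACIT chain, was at 985, 622, 576 and 1003 CPM in the Pi16 cluster and at 113, 163, 124 and 131 in the other. Col15a1 had the opposite order, at 27.4, 37.9, 65.3 and 44.5 CPM in the Pi16 cluster against 132, 389, 544 and 559. For both genes the ranges did not overlap. The Pi16 cluster made up 40.0 and 42.5% of progenitors in the libraries labelled WT 1 and 2 and 12.7 and 30.2% in those labelled PTRF KO 1 and 2.

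In the contractile class, Col14a1 was at 316, 409, 243 and 257 CPM, a level that overlapped with progenitors (mean 361 ± 129), and Col17a1, a transmembrane collagen of hemidesmosomes, was highest there, at 191, 114, 183 and 197. Col16a1 (a FACIT chain) at 106, 279, 189.8 and 166 CPM, and Col7a1 (the anchoring fibril chain of the skin) at 85.5, 119, 127 and 56.0, are named after their values were seen. Col16a1 was 20.6 CPM in progenitors, the next class. In secretory luminal nuclei Col9a1, a FACIT chain of cartilage, reached 116, 26.0, 70.0 and 36.5 CPM. This class joins clusters 0 and 4, and cluster 0 made up 77.5, 3.91, 65.4 and 30.2% of it in the 4 libraries, the same order of libraries as that of Col9a1. In cluster 4 alone Col9a1 was at 46.2, 26.5, 47.4 and 34.1 CPM, and in cluster 0 at 141, 0, 87.4 and 46.1, where WT 2 held only 16 nuclei. Col8a1, a short-chain network collagen of vessels, was 2473, 77.0, 470.5 and 726 CPM in hormone-sensing luminal nuclei. The WT 1 library set the mean of 937 ± 1058, which was 425 without it.

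Between the labelled groups, 0 of 37 tested collagen chain genes passed the threshold in progenitors (edgeR quasi-likelihood test with Benjamini-Hochberg adjustment over all genes, adjusted p under 0.05), where 0.0658% of 12162 genes did. DESeq2 called 1, Col5a3. At an unadjusted p under 0.05 stood 12 members, 10 of them higher in the libraries labelled PTRF KO, while 3.92% of all genes did so. The median log2 difference, PTRF KO minus WT, was 0.29 over the members tested and 0.00 over all genes. By family, 8 of 9 fibrillar, 5 of 6 type IV and 5 of 6 type VI members tested lay above 0 and 0 of 6 FACIT members did, with 0 called in each. The type VI count includes Col6a5, which passed the low-count filter through the libraries labelled PTRF KO alone. It was at 0.0342 and 0.0452 against 0.111 and 0.108 CPM per kb of span, and nothing is read from its direction.

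Col5a3 had the largest difference of the members in progenitors, at 48.4 and 89.4 normalised CPM in the libraries labelled WT and 389 and 247 in those labelled PTRF KO. The groups did not overlap, and the log2 difference was 2.23 ± 0.36 (adjusted p = 0.0818, edgeR). Of 14 alternative settings, 9 called it, and leaving out any 1 library gave 1.81 to 2.68, called each time. In the Pi16 cluster it was at 9.61, 63.9, 272 and 102 CPM and in the other cluster at 75.0, 101, 402 and 296, so that the same order held in both. Col1a1 was at 189 and 291 against 456 and 758 normalised CPM, a difference of 1.35 ± 0.35 (adjusted p = 0.503). Col15a1 stood at 90.0 and 231 against 485 and 423, with 1.52 ± 0.40 (adjusted p = 0.506), and Col6a1 at 67.6 and 61.3 against 141 and 175, with 1.30 ± 0.28 (adjusted p = 0.282). None of these groups overlapped, and none passed the test. Groups of 2 libraries can lie apart by chance, and the share of all genes with groups apart was not counted. Col4a3 differed by 1.64 ± 0.44 (20.5 and 23.0 against 96.8 and 43.9 normalised CPM, adjusted p = 0.549), at a level close to that of lymphocytes.

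Some markers listed for other cells differed by label in progenitors. The summed level of 8 pericyte markers was 209 and 230 CPM in the libraries labelled WT and 468 and 349 in those labelled PTRF KO, with Higd1b at 0 in PTRF KO 1. Pdgfrb held the most of that sum, at 83.6 and 95.7 against 206 and 160 CPM. Abcc9, Gucy1a1, Cspg4 and the low Kcnj8 also lay apart, while Rgs5, Notch3 and Higd1b overlapped between the labels. The 12 fibroblast/progenitor markers summed to 10199 and 7887 against 7775 and 11195 CPM, with overlapping groups. The share of the Pi16 cluster, given above, was lower in the libraries labelled PTRF KO, and Col15a1 was lower in that cluster. The part of these in the differences above was not tested.

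In adipocytes 0 of 41 members tested were called by edgeR or DESeq2, and 0.32% of 18762 genes were by edgeR. At an unadjusted p under 0.05 stood 7 members, 4 of them higher in the libraries labelled PTRF KO, and 3.49% of all genes. Col1a1 had the largest difference, at 4.16 and 8.51 against 8.89 and 24.7 normalised CPM (1.55 ± 0.54, adjusted p = 0.502). Its groups lay barely apart, with PTRF KO 2 well above the rest. The difference was 0.59 without PTRF KO 2 and 2.11 without PTRF KO 1. As given above, its adipocyte level was at or near that of lymphocytes. In B nuclei Col1a1 was at 8.95 and 24.1 against 36.4 and 34.5 normalised CPM, and the part of background was not tested. Col27a1 was at 21.3 and 90.8 against 23.0 and 14.9 normalised CPM, a difference of -1.54 ± 0.49 (adjusted p = 0.404). Col12a1, a FACIT chain, was at 33.3 and 77.2 against 31.6 and 9.85, and Col6a3 at 31.8 and 126 against 29.1 and 31.3. For Col27a1 and Col6a3 the WT 1 library stood with the libraries labelled PTRF KO, so the groups overlapped and WT 2 set the difference. Without WT 2 the difference of Col6a3 went from -1.35 to -0.10, and that of Col27a1 to -0.23. Col15a1 was at 122 and 144 against 279.6 and 258, with groups apart (1.02 ± 0.41, adjusted p = 0.854).

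Of the members, 2 differed between adipocytes and progenitors in their label difference, by the interaction of class and label in edgeR with the library as a block, where 0.307% of 17272 genes did. Both were lower in adipocytes relative to progenitors. Their adipocyte levels were low. Col6a3 was at 29.9, 32.0 and 28.3 CPM in WT 1, PTRF KO 1 and PTRF KO 2 and at 129 in WT 2. In B nuclei it averaged 24.7 CPM and in T and NK nuclei 26.8. Col5a3 averaged 28.6 CPM in adipocytes, against 16.2 in B and 13.9 in T and NK nuclei. The part of background in the adipocyte side of the interaction was not tested. For Col5a3 the label difference was 0.05 ± 0.40 in adipocytes (27.8 and 28.4 against 32.5 and 26.0 normalised CPM) and 2.23 in progenitors, and the interaction was -2.20 ± 0.37 (adjusted p = 0.000705). For Col6a3 it was -1.35 ± 0.44 in adipocytes and 0.88 ± 0.37 in progenitors (232 and 507 against 688 and 669), and the interaction was -2.03 ± 0.34 (adjusted p = 0.000705). All 7 alternatives called both genes. Without WT 1 the interaction of Col5a3 was -1.74 (adjusted p = 0.0492), and without WT 2 that of Col6a3 was -1.57 (adjusted p = 0.0254). At an unadjusted p under 0.05 stood 8 of 39 members and 6.08% of all genes.

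**Figure D4:**
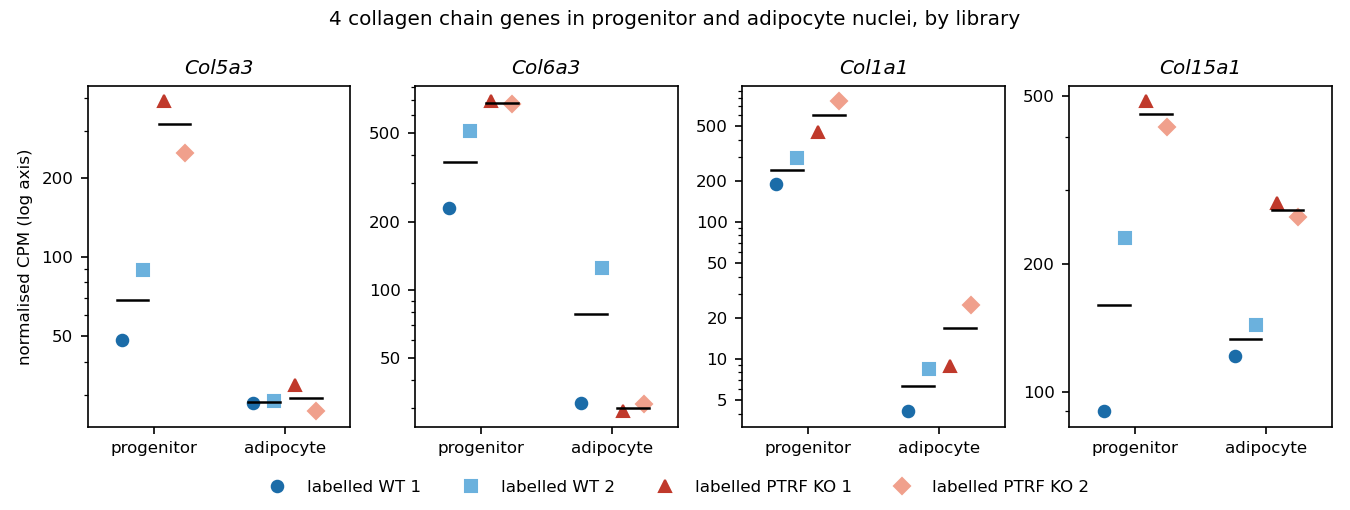
Normalised CPM (log axis) of Col5a3, Col6a3, Col1a1 and Col15a1 in progenitors and adipocytes, with 1 point per library and a bar at the mean of each label. Col5a3 separates the labels in progenitors and not in adipocytes, and Col6a3 in adipocytes is set apart by the WT 2 library alone.

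The promoter windows of Col5a3 and Col6a3 are shown because their genes were the members called by the interaction. Col5a3 lies on chromosome 9 (20770050 to 20815067, minus strand) and overlaps the antisense gene Gm26274, and Col6a3 lies on chromosome 1 (90765923 to 90843971, minus strand). The windows are at chr9:20815018-20815317 and chr1:90843922-90844221, both minus strand, with capitals as above.
Col5a3: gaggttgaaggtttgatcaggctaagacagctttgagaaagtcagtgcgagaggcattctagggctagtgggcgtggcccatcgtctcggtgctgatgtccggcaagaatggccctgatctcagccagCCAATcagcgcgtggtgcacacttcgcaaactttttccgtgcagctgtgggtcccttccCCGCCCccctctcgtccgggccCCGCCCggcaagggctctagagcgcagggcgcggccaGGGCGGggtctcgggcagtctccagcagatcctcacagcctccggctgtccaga
Col6a3: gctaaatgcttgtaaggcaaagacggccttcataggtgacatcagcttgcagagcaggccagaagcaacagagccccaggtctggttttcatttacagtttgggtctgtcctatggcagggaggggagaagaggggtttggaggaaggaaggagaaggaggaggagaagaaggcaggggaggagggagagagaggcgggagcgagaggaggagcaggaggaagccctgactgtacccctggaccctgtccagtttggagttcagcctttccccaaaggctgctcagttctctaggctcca

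Col5a3 holds 1 CCAAT and 3 GGGCGG matches, and Col6a3 holds no match to the 3 motifs. The shares of all promoters with these letters are those given for the type IV pairs.

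In endothelial nuclei edgeR called 2 of 13 members tested, both lower in the libraries labelled PTRF KO, and 2.19% of 4439 genes. One of the 2, Col18a1, passed the low-count filter through the libraries labelled WT alone, so its values are a description and no test is read from its call. Col18a1 encodes the basement membrane collagen that is the source of endostatin. It was counted with 39 and 10 UMIs in the libraries labelled WT 1 and 2 and with 0 and 3 in those labelled PTRF KO 1 and 2, or 177 and 101 against 0 and 8.76 normalised CPM. Pooled by label, this was 49 of 396024 UMIs against 3 of 489829, sums that leave out the spread between libraries. A count of 0 in PTRF KO 1 allows up to 30.7 CPM, counting 3 UMIs. Without WT 1 the gene did not pass the filter. Its gene overlaps Slc19a1 on the opposite strand.

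Col28a1, a collagen of the von Willebrand domain family best known from nerve, was at 355 and 405 against 39.6 and 99.3 normalised CPM, from 78, 40, 3 and 34 UMIs. The groups did not overlap, and the log2 difference was -2.20. With 3 UMIs in PTRF KO 1, Col28a1 lay under the low-count filter in that library. Passing the filter thus needed the libraries labelled WT, so its values are a description too. Col28a1 was not called by edgeR with nuclei of at least 1000 UMIs (adjusted p = 0.104) or with no low-count filter (adjusted p = 0.117). DESeq2 called Col28a1 and gave Col18a1 no adjusted p. Col4a5, also under the filter in PTRF KO 1, was at 277 and 101 against 26.4 and 70.1 normalised CPM and was not called. Its log2 difference was -1.79, and -0.86 without WT 1. Col4a2 and Col3a1 lay above 0, and at an unadjusted p under 0.05 stood 6 of 13 members and 11% of all genes. Col18a1 and Col28a1 are among the 6, so the filter favoured that count and nothing is read from it. Col4a6, at 119 and 55.3 against 0 and 45.9 CPM, was also tested through the libraries labelled WT alone.

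The makeup of the endothelial class differed between the labels. Nuclei with a lymphatic marker UMI made up 39.2 and 41.9% of the class in the libraries labelled WT and 11.6 and 21.1% in those labelled PTRF KO. The 8 lymphatic markers summed to 4987 and 2379 against 481 and 875 CPM, with Pdpn at 0 in PTRF KO 1 and Ccl21a at 0 in all libraries but WT 1. Stab2 was highest in PTRF KO 2, against the rest of the list, at 14.8 and 7.90 against 0 and 89.3 CPM. The 8 pericyte markers summed to 738 and 988 against 2138 and 1339 CPM. Among them Abcc9, Pdgfrb and Gucy1a1 lay apart by label, and Rgs5, Notch3, Cspg4, Kcnj8 and Higd1b overlapped. In nuclei without a lymphatic UMI, Col28a1 was at 430 and 577 against 34.3 and 33.9 CPM, so it was lower there too. It passed the low-count filter there through the libraries labelled WT alone, so no test is read from it. Col18a1 was at 97.1 and 59.2 against 0 and 6.79 CPM in those nuclei, from 14, 4, 0 and 2 UMIs, which was too few to test. In nuclei with a lymphatic UMI, Col28a1 was at 128 and 17.0 against 0 and 246 CPM, with overlapping groups.

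**Figure D5:**
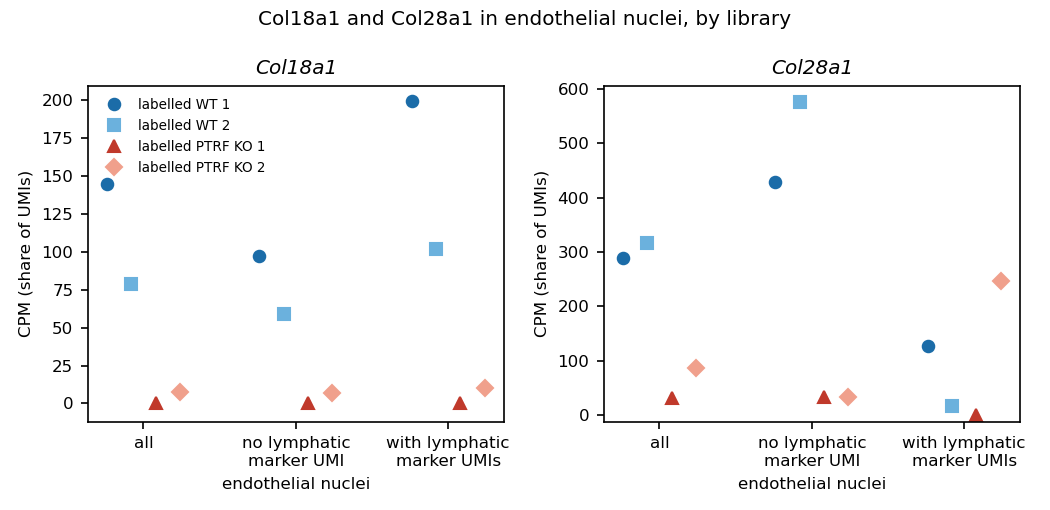
CPM of Col18a1 and Col28a1 in endothelial nuclei, with 1 point per library, for all nuclei of the class and for those without and with a lymphatic marker UMI. Without such UMIs, Col28a1 stands at 430 and 577 CPM in the libraries labelled WT and at 34.3 and 33.9 in those labelled PTRF KO.

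In the remaining classes 0 members were called by edgeR or DESeq2. The share of all genes called by edgeR was 0.0381% in B, 0.0129% in T and NK, 0.00958% in contractile, 0.0578% in dendritic, 0.0361% in macrophage and 0.0064% in secretory luminal nuclei, and 0% in hormone-sensing luminal nuclei. Members tested numbered 37, 38, 35, 1, 18, 39 and 24 in that order of classes. At an unadjusted p under 0.05 stood 3 members in B nuclei (1.49% of all genes), 1 in T and NK (1.06%), 1 in contractile (1.55%) and 0 in dendritic nuclei (6.21%). In macrophages it was 0 (1.6%), in secretory luminal nuclei 4 (2.14%) and in hormone-sensing luminal nuclei 4 (3.29%).

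Over the sum of all nuclei, 0 of 44 members were called by edgeR or DESeq2, where 0.103% of 28075 genes were by edgeR. At an unadjusted p under 0.05 stood 7 members, 6 of them higher, and 1.18% of all genes. Col1a1 was at 22.4 and 35.0 against 35.1 and 123 normalised CPM (1.47 ± 0.46, adjusted p = 0.545), Col1a2 at 41.9 and 52.0 against 37.4 and 191, and Col3a1 at 41.7 and 89.7 against 54.7 and 264. In each the PTRF KO 2 library was the highest. Without it, Col1a1 went to 0.29, and Col1a2 and Col3a1 turned to -0.33 and -0.27. In the same library the Col3a1 level was also the highest in lymphocytes and macrophages: 45.0 CPM in B nuclei (9.04, 9.07 and 36.9 in the others), 44.2 in T and NK nuclei (10.9, 15.5 and 12.5) and 45.9 in macrophages (4.10, 20.5 and 8.86). Its part in the other classes' values was not tested. Progenitors numbered 1333 of 15528 nuclei in WT 1, 557 of 6664 in WT 2, 638 of 11988 in PTRF KO 1 and 1613 of 15887 in PTRF KO 2. Within progenitors the Col1a1 and Col3a1 levels, given above, were also highest in PTRF KO 2, and without progenitors the difference of Col1a1 over the remaining nuclei was 1.2.

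Genes that act on collagen were followed in 5 lists of 65 genes, covering chain-modifying and folding enzymes, propeptide processing and crosslinking, receptors, degradation and basement membrane partners. In progenitors 0 of 59 tested were called and in adipocytes 0 of 62. Nor was any of the 65 called in all nuclei, or of 62 in the interaction. In progenitors 14 of 17 modifying and folding enzymes lay above 0 (median 0.23), among them Plod1, which hydroxylates lysines of the chains (17.4 and 11.5 against 54.3 and 25.9 normalised CPM, 1.34 ± 0.50). Serpinh1, the collagen chaperone HSP47, was at 83.8 and 129 against 90.9 and 265 in progenitors. In adipocytes it was at 11.2 and 17.0 against 18.7 and 53.0. Adamts2, which removes the amino propeptide of fibrillar chains, was at 40.0 and 65.3 against 112 and 88.7 in adipocytes, a difference of 0.95.

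Itga2, a collagen-binding integrin subunit, was lower by label in progenitors, at 51.5 and 106 against 20.5 and 29.8 normalised CPM (-1.55 ± 0.42, adjusted p = 0.549). Mmp3, a matrix protease, was at 109 and 109 against 283 and 196 (1.13 ± 0.29, adjusted p = 0.467). Hspg2, the basement membrane proteoglycan perlecan, was at 136 and 188 against 345 and 282 (0.96 ± 0.29, adjusted p = 0.648). The groups of these 3 genes did not overlap, but the share of all genes with groups apart was not counted. In endothelial nuclei 1 of 26 tested was called, where 2.19% of all 4439 genes were. The gene called was Tll1, a protease of the BMP1 family that trims procollagens. It was at 450.3 and 760.2 against 92.5 and 228 normalised CPM (-1.72 ± 0.39, adjusted p = 0.0148). In nuclei without a lymphatic UMI the difference of Tll1 was 0.10, and without WT 2 it was not called (-1.36, adjusted p = 0.377).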

How the data were processed

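Values in the deposited files are raw UMI counts (gene by barcode), which the authors obtained against GRCm38 (mm10) with Seurat 4.3.0 named, per the submitters' processing notes. A Singleron GEXSCOPE nucleus kit was used, per the labels' protocols. No source used here names the aligner. The lowest deposited total was 500 UMIs.

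Nuclei with at least 500 UMIs, 300 genes and at most 10% mitochondrial UMIs were clustered in scanpy 1.11.5 (2000 variable genes without collagen chain genes, 30 principal components, 15 neighbours, Leiden resolution 1). Scrublet called 3, 0, 0 and 0 doublets, so it has not worked and doublets remain. Counts were summed per library and class and tested with edgeR 4.0.16 (filterByExpr, TMM, robust quasi-likelihood F test, two-sided, Benjamini-Hochberg, threshold 0.05), checked on simulated counts. SE is the log2 difference over the square root of F. DESeq2 1.42.0 was an alternative. Members, lists and markers were chosen with earlier results of these data known.

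Genes are named if called, among the 5 highest of a class at 10 CPM or more, among the 3 largest differences in adipocytes, progenitors or all nuclei at an unadjusted p under 0.05, or partners of these in a molecule. List genes are named among the 3 largest of a list. Other members are named where singled out after their values were seen. Depth was 8623219 to 34819482 UMIs per library, and the limit given for a count of 0 covers counting error only.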

Additional observations from a re-analysis of the deposited data

Results flagged for a closer look

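The label difference of Col5a3 in adipocytes minus that in progenitors was -2.20 on the log2 scale, by the interaction of class and label (edgeR, adjusted p = 0.000705). The progenitor values were 48.4 and 89.4 normalised CPM in the libraries labelled WT and 389 and 247 in those labelled PTRF KO, and the adipocyte values 27.8 and 28.4 against 32.5 and 26.0.

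For Col6a3 the same difference was -2.03 (edgeR, adjusted p = 0.000705). Both classes contributed, with 232 and 507 against 688 and 669 normalised CPM in progenitors and 31.8 and 126 against 29.1 and 31.3 in adipocytes, where WT 2 alone stood apart. Outside WT 2, the adipocyte level of Col6a3 was close to that of lymphocytes, and that of Col5a3 was low as well. The part of background in both results was not tested. In the edgeR fit, neither gene's label difference passed the threshold within either class, while 9 of 14 alternative settings, DESeq2 among them, called Col5a3 in progenitors.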

How the results depend on the processing

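Directions and calls were recomputed under other tools, filters, scalings, class definitions and left-out libraries. The crossed pairing, the parts of classes and the nuclei without lymphatic UMIs were chosen after seeing the data. With all libraries kept, 17 class levels under 4 other settings (68 values) moved by at most 1 SD. Leaving out 1 of 4 libraries cannot move a mean past 1 SD, so it is no check of stability: without WT 1, Col8a1 in hormone-sensing luminal nuclei went from 937 to 425 CPM. Of 500 alternatives for 42 gene differences, 456 kept direction and call and 6 reversed. Without PTRF KO 2, Col3a1 was -0.27 and Col1a2 -0.33 in all nuclei and Col1a2 -0.17 in adipocytes (up to 2.01, 2.02 and 1.98 without another library). Col8a1 was 0.54 in all nuclei without WT 1 (down to -1.91), Col5a3 was -0.088 in adipocytes without PTRF KO 1 (up to 0.21), and Tll1 was 0.10 in endothelial nuclei without lymphatic UMIs. The cause was not tested. Against 0 members called in progenitors, DESeq2, no low-count filter and deeper nuclei each called 1. Against 2 in endothelial nuclei, DESeq2, no low-count filter, deeper nuclei and nuclei without lymphatic UMIs each called 1. The call in nuclei without lymphatic UMIs was Col28a1, which passed the filter there through the libraries labelled WT alone. Against 0 in secretory luminal nuclei, no low-count filter called 1. DESeq2 called 0 pathway genes in endothelial nuclei against 1. Cavin1 was 4.3, and not called, in the progenitor cluster not led by Pi16. Leaving out 1 library at a time gave 1 to 4 members called in progenitors, 0 to 4 in adipocytes, 1 to 3 in endothelial, 0 to 3 in hormone-sensing luminal, 0 to 2 in secretory luminal and 0 to 1 in contractile nuclei, and 0 to 1, 0 to 1 and 0 to 2 pathway genes in adipocytes, progenitors and endothelial nuclei. With 1 library left in a group, it is assumed to vary like the others. Calls over all genes moved by more than 1.5 times with the setting: 3 to 39 in all nuclei (29 in the reported fit), 11 to 320 in adipocytes (60), 1 to 109 in progenitors (8), 5 to 135 in endothelial nuclei (97) and 25 to 107 in the interaction (53). Low UMI counts limit the endothelial and dendritic values most.

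Replicate numbers state no pairing, and same-numbered libraries deviated with a correlation of -0.57 over 6142 genes. A fit with the replicate number as a block called 1 member in progenitors and 0 in adipocytes. With the numbers crossed, 5 were called in progenitors, 3 in adipocytes and 1 in B nuclei.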
